A study of Danio rerio with 20 samples.

Results

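The genes described here act in the uptake of glutamate and in the glutamine cycle: the glutamine synthetase genes glula and glulb, the glutaminase-like gene glsl, and the glutamate transporter genes slc1a2a, slc1a2b and slc1a3a. They were chosen by name, and 5 of the 6 matched a gene name among the 18820 genes counted, while slc1a2a was not analysed here. The cells came from Tg(HuC:H2B-GCaMP6f) zebrafish aged 4 to 5 weeks, a line in which the HuC promoter drives a calcium indicator in the nuclei of neurons throughout the brain. All cells were single neurons of the central zone of the dorsal pallium (Dc), drawn into a glass pipette after treatment with conspecific alarm substance (CAS), a cue that signals danger to fish of the same species. There were 10 libraries of synchronized neurons, whose calcium signal joined the slow common oscillation after CAS, and 10 of non-synchronized neurons, whose signal did not. The authors propose that the synchronized neurons are mostly glutamatergic and the non-synchronized ones mostly GABAergic. A difference between the groups therefore cannot be told apart from a difference in neuron type. No untreated cells were analysed here, so what CAS itself changes cannot be read from these values.

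Glutamate released at a synapse is cleared by transporters of the SLC1 family. In mammals SLC1A2 and SLC1A3 carry most of this uptake and sit mainly on astrocytes, where glutamine synthetase turns glutamate into glutamine. Glutamine then passes to neurons through SLC38 transporters, and glutaminase turns it back into glutamate. Zebrafish carry a and b copies of many of these genes, and radial astroglia take the place of mammalian astrocytes. In a neuron library, counts of such genes can come from the neuron or from glial RNA taken up with it, so the levels of glial marker genes are given beside them.

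Library totals were 795838 to 2493351 counts in synchronized and 1131532 to 3144155 counts in non-synchronized cells, and 3 counts, taken as the floor for a gene with none, correspond to 3.77 CPM in the smallest library and 0.954 CPM in the largest (CPM, the count of a gene scaled to the library total). All 20 cells held counts of the neuronal genes elavl3 and snap25a. The summed CPM of 4 GABAergic genes had a median of 14.9 in synchronized (0 to 1179) and 563 in non-synchronized cells (0.414 to 7499). For 3 vesicular glutamate transporter genes the medians were 530 (165 to 734) and 181 (0 to 695). The summed CPM of 10 radial astroglia genes ranged from 0 to 591 in synchronized cells (median 131) and from 69.7 to 1228 in non-synchronized cells (median 348). Most of this came from fabp7a, sox2, ptn and atp1a1b, whereas gfap, the defining intermediate filament gene of these glia, had counts in 3 synchronized and 1 non-synchronized cells, and s100b in 2 and 0 cells. Synchronized cell 5 and non-synchronized cells 5 and 6 held over 1000 CPM of red blood cell genes, and non-synchronized cells 13 and 22 over 1000 CPM of microglia and leukocyte genes. Some values without these 5 libraries, which leave 9 synchronized and 6 non-synchronized cells, are given beside the main ones. The labels do not name the fish of each cell, so a group counts as 1 sample here and the groups were not tested against each other. The SD is a spread between cells. Intervals and floors cover counting error only, those of shares of cells assume independent cells, and variation from fish to fish is in none of them.

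Of the 5 genes, glula and slc1a2b had counts in every cell, and the mean level of glula was nearly the same in both groups. glula (ENSDARG00000099776), a glutamine synthetase gene, had a mean of 293 ± 261 CPM over the 10 synchronized cells, against 294 ± 290 CPM over the 10 non-synchronized cells (SD). Of all genes, 8.65% had counts in all 20 cells, as these 2 did. The exact binomial 95% interval of the share of cells with counts was 69.2% to 100% in each group, and all 20 cells still held glula counts after thinning to the smallest total.

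The spread of glula between cells was far wider than its counting error. In the synchronized cells the lowest, median and highest values were 52.8, 226 and 942 CPM, against 59.97, 210 and 1036 CPM in the non-synchronized cells. The highest cell was 19.6-fold above the lowest, and the groups overlapped over almost their whole range. The lowest value rested on 42 counts in synchronized cell 4 (exact Poisson 95% interval 38.0 to 71.3 CPM) and the highest on 1877 counts in non-synchronized cell 22 (989 to 1083 CPM). The highest cell of each group carried the label number 22, and what this number marks is not given. These cells held 32.2% and 35.2% of the summed CPM of the synchronized and the non-synchronized group. Next came synchronized cell 21 at 541 CPM and non-synchronized cell 18 at 486 CPM. Without synchronized cell 22 the means were 221 CPM for the synchronized and 294 CPM for the non-synchronized group, and without non-synchronized cell 22 they were 293 and 212 CPM, so that either order could result from leaving out 1 cell.

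**Figure D1:**
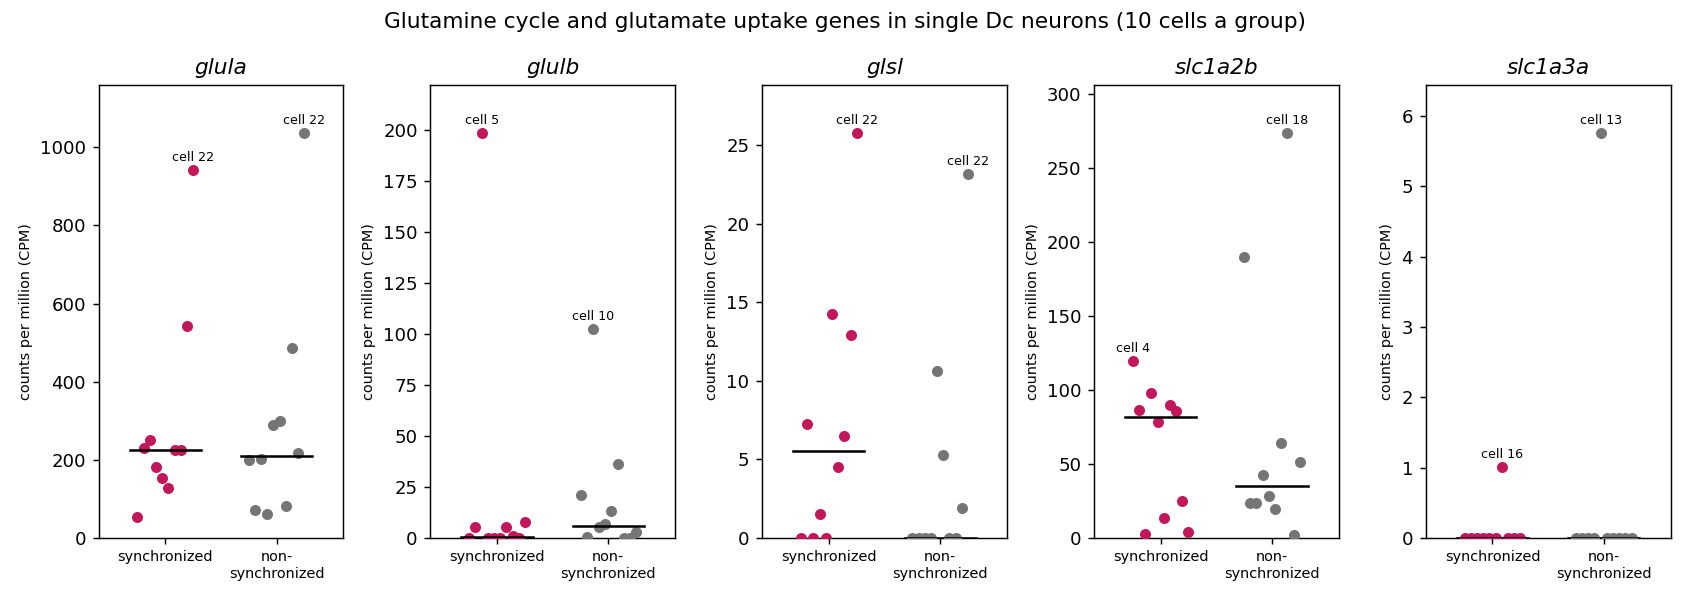
Level of each gene in CPM (linear axis from 0, a separate scale for each gene) in single Dc neurons, with synchronized cells left and non-synchronized cells right. Each point is 1 cell, the black line is the group median, and the highest cell of each group is named. For all 5 genes the ranges overlap, and for glula and glsl the highest cell of both groups carries number 22.

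The relation of glula to glial marker genes differed with the marker. Spearman's rho between glula and the summed radial astroglia genes was 0.17 over the 20 cells, 0.18 within the synchronized and 0.25 within the non-synchronized cells, values given as a description since the cells may share fish. For the single genes of that list rho over the 20 cells ranged from -0.27 for s100b to 0.54 for slc4a4a, with -0.06 for gfap. For slc4a4a, a bicarbonate transporter gene with counts in 5 cells, rho was 0.31 within the synchronized and 0.75 within the non-synchronized cells. Without the cells numbered 22, rho for slc4a4a was 0.31 over all cells, -0.14 within the synchronized and 0.64 within the non-synchronized cells. With the summed microglia and leukocyte genes rho was 0.41 over the 20 cells, -0.17 within the synchronized and 0.73 within the non-synchronized cells. Synchronized cell 5, in which the 10 radial astroglia genes were all at 0, held 250 CPM of glula, or 318 counts. It was not free of glial RNA, with 743 CPM of oligodendrocyte genes, against a group median of 143 CPM. In synchronized cell 21, the astroglia sum was 12.9 CPM beside 541 CPM of glula. Non-synchronized cell 22, with the most glula, held 425 CPM of the astroglia genes, among them sox2 and slc4a4a, each at its highest of the 20 cells (226 and 120 CPM), while gfap and s100b were at 0. It also held 1320 CPM of microglia and leukocyte genes. Synchronized cell 22 held 591 CPM of the astroglia genes, of which atp1a1b, a sodium-potassium pump subunit gene, made 524 CPM, and 28.9 CPM of the microglia and leukocyte genes. The part of glial or microglial RNA in the glula values of these 2 libraries was not tested.

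The second glutamine synthetase gene, glulb (ENSDARG00000100003), was patchy between cells. Among the synchronized cells 5 of 10 had counts (18.7% to 81.3%, exact binomial 95% interval), against 8 of 10 among the non-synchronized cells (44.4% to 97.5%). The lowest, median and highest values were 0, 0.465 and 198 CPM in synchronized and 0, 6.01 and 102 CPM in non-synchronized cells. Synchronized cell 5 alone held 91.2% of the summed glulb CPM of its group, with 252 counts, and the other 9 were at most 7.54 CPM. Non-synchronized cell 10 held 54.4% of its group's sum, with 321 counts, followed by cell 17 at 36.3 CPM and cell 5 at 20.9 CPM. The direction of the group difference therefore depended on 1 library.

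Averaged over all cells, glulb stood at 21.7 ± 62.0 CPM in the 10 synchronized cells, against 18.8 ± 31.5 CPM in the 10 non-synchronized cells (SD). Without synchronized cell 5 the means were 2.13 and 18.8 CPM, and the log2 ratio of the means (synchronized over non-synchronized, with 1 CPM added to each) changed to -2.66 from 0.20. Without non-synchronized cell 10 the ratio was 1.11. It was -3.12 over the 15 cells that held no more than 1000 CPM of microglia and leukocyte or of red blood cell genes. The medians and the number of cells with counts were higher in the non-synchronized group. Synchronized cell 5 also held 4343 CPM of red blood cell genes and the highest level of mag, a myelin gene, at 742 CPM. With the summed oligodendrocyte genes glulb had a rho of 0.46 over the 20 cells, 0.34 within the synchronized and 0.58 within the non-synchronized cells. Over the 15 cells named above this rho was 0.29. The part of other cells in the glulb level of synchronized cell 5 was not tested. How reads that match both glula and glulb were counted was not stated in the sources read, so the split between these paralogs is uncertain. Spearman's rho between glula and glulb was 0.16 over the 20 cells, but 0.67 within the synchronized and -0.27 within the non-synchronized cells, a difference that was not tested. Non-synchronized cell 18, for example, held 486 CPM of glula and 0 counts of glulb.

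The glutaminase-like gene glsl (ENSDARG00000062781) was low and was counted in part of the cells. The reference names list glsl also as an older name of glsa, which has a row of its own here. Counts were found in 7 of 10 synchronized cells (34.8% to 93.3%) and in 4 of 10 non-synchronized cells (12.2% to 73.8%), intervals that overlap widely. Summed over the cells, glsl had 139 counts in the synchronized group, equal to 7.75 CPM (exact Poisson 95% interval 6.51 to 9.15), and 77 in the non-synchronized group, equal to 3.58 CPM (2.82 to 4.47). These 2 intervals cover counting error only and not the spread between cells, so their distance does not show a difference between the groups. The cells numbered 22 held 41 of the 139 synchronized and 42 of the 77 non-synchronized counts. The median was 5.51 CPM in synchronized cells and 0 CPM in non-synchronized cells. The highest cell was again number 22 in both groups, at 25.8 CPM in the synchronized and 23.2 CPM in the non-synchronized cell. Next came cells 14-1 and 21 at 14.3 and 12.9 CPM in the synchronized group, and cell 13 at 10.6 CPM in the non-synchronized group. The means were 7.27 ± 8.31 CPM for synchronized and 4.097 ± 7.55 CPM for non-synchronized cells (SD), with a log2 ratio of 0.70. Leaving out synchronized cell 22 gave means of 5.22 and 4.097 CPM and a ratio of 0.29, and leaving out non-synchronized cell 22 gave 7.27 and 1.98 CPM and a ratio of 1.47.

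In part of the libraries glsl was found where microglia RNA was higher and the mitochondrial share lower. The 4 non-synchronized cells with glsl counts (13, 15, 19-1 and 22) held 19.4 to 2729 CPM of microglia and leukocyte genes, and the 6 without glsl held at most 1.41 CPM (rho 0.89 between glsl and this sum over the 10 non-synchronized cells). Among the synchronized cells no such split was seen, with 0 to 250 CPM in the 7 cells that held glsl and 0.440 to 4.72 CPM in the 3 that did not. Of the 12 genes in the microglia and leukocyte list 8 were found, and the defining gene mpeg1.1 had counts in 0 synchronized and 1 non-synchronized cells. Mitochondrial genes took 2.09% to 7.34% of the counts in the synchronized cells with glsl and 7.36% to 14.04% in those without. For the non-synchronized cells the shares were 2.74% to 5.18% and 3.32% to 13.7%, which overlap. The rho between glsl and the mitochondrial share was -0.56 over the 20 cells, -0.89 within the synchronized and -0.23 within the non-synchronized cells. The part of either measure in the glsl values was not tested. Without the 5 libraries rich in microglia or red blood cell genes, glsl had counts in 7 of 9 synchronized and 2 of 6 non-synchronized cells, with a log2 ratio of 2.05.

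Over all 20 cells glsl tended to be high where glula was high. Spearman's rho was 0.62 over 20 cells, 0.45 within the synchronized and 0.69 within the non-synchronized group, and 0.47, 0.24 and 0.55 when both cells numbered 22 were left out. Synchronized cell 14-1 departed from this, with 14.3 CPM of glsl beside 128 CPM of glula, as did non-synchronized cell 18, with 0 counts of glsl beside 486 CPM of glula. glsl and glulb did not go together in this way (rho -0.13). Counts of both were found in 4 synchronized and 3 non-synchronized cells, glsl without glulb in 3 and 1, and glulb without glsl in 1 and 5.

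**Figure D2:**
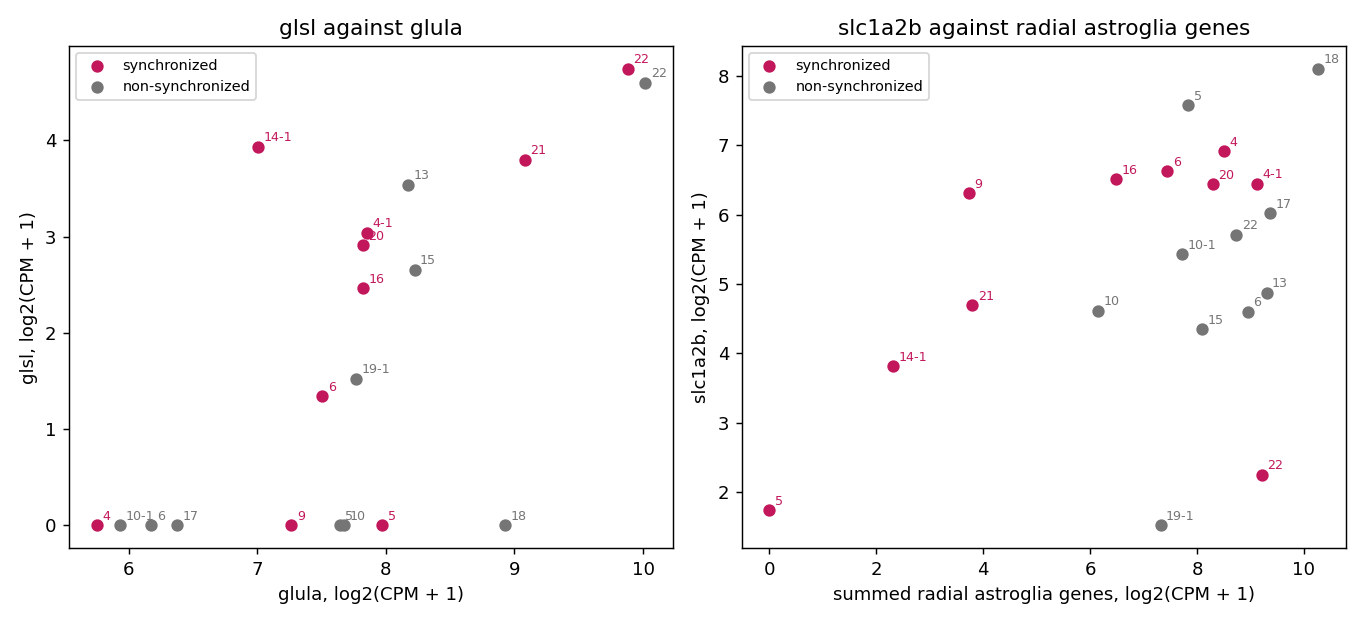
Left, glsl against glula. Right, slc1a2b against the summed level of 10 radial astroglia genes. Both axes are log2(CPM + 1), each point is 1 cell labelled with its number, and 20 cells are shown. Cells without glsl lie on the zero line at glula levels of 52.8 to 486 CPM, and synchronized cell 22 and non-synchronized cell 19-1 lie low in slc1a2b beside astroglia sums of 591 and 158 CPM.

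Of the glutamate uptake genes, slc1a2b was counted in every cell and slc1a3a in hardly any. slc1a2b (ENSDARG00000102453), a copy of the mammalian gene for the main astrocyte glutamate transporter, had a mean of 60.1 ± 44.0 CPM over the 10 synchronized cells, against 71.7 ± 88.2 CPM over the 10 non-synchronized cells (SD). The lowest, median and highest values were 2.36, 81.7 and 119 CPM in synchronized and 1.88, 35.3 and 273 CPM in non-synchronized cells. The mean was thus the higher one in non-synchronized and the median in synchronized cells. The highest cell was 145-fold above the lowest, a wider range than that of glula.

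The levels of slc1a2b fell into an uneven pattern within each group. Of the synchronized cells, 6 (4, 4-1, 6, 9, 16 and 20) lay between 78.0 and 119 CPM, and the other 4 (5, 14-1, 21 and 22) at 25.0 CPM or less. Non-synchronized cells 18 and 5, at 273 and 190 CPM, held 64.6% of the group's sum, and the other 8 were at most 63.9 CPM. Without cell 18 the means were 60.1 CPM for the synchronized and 49.3 CPM for the non-synchronized group, so the order of the means turned. It also turned without non-synchronized cell 5, at 60.1 and 58.6 CPM. Synchronized cell 5 held 3 counts and non-synchronized cell 19-1 held 5. Thinned to the smallest total, 8 to 10 synchronized and 9 to 10 non-synchronized cells kept a count.

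Non-synchronized cell 18, highest in slc1a2b, also had the highest sum of radial astroglia genes, 1228 CPM, and the most fabp7a, a fatty acid binding protein gene of radial glia, at 1026 CPM. gfap and s100b were at 0 in this cell. The rho of slc1a2b with the astroglia sum was 0.32 over the 20 cells, 0.42 within the synchronized and 0.52 within the non-synchronized group. The synchronized value was 0.80 without the cells numbered 22 and 0.20 without synchronized cell 5, the 1 synchronized library among the 5 rich in microglia or red blood cell genes. For the single genes of the list rho over the 20 cells ranged from -0.08 for her4.1 to 0.47 for fabp7a, with 0.00 for ptn and 0.28 for gfap. Synchronized cell 22 went the other way, with 3.77 CPM of slc1a2b beside an astroglia sum of 591 CPM. Synchronized cell 9 held 78.0 CPM of slc1a2b beside 12.3 CPM. The summed level of the GABAergic genes gad1b, gad2, slc32a1 and slc6a1b gave a rho of 0.49 with slc1a2b over the 20 cells. Within the synchronized cells it was 0.73, and within the non-synchronized cells 0.41. Non-synchronized cells 18 and 5 held 3860 and 7499 CPM of these genes, but cell 6, at 23.2 CPM of slc1a2b, held 6303 CPM. With the vesicular glutamate transporter genes rho was -0.06 over the 20 cells. The part of glial RNA or of neuron type in slc1a2b was not tested. Unlike glsl, slc1a2b showed no positive relation to glula over the 20 cells (rho -0.17). Within the synchronized cells this rho was -0.54, and within the non-synchronized cells 0.08. Of the cells numbered 22, both highest in glula, the synchronized one was low in slc1a2b at 3.77 CPM, and the non-synchronized one, at 51.3 CPM, lay above its group's median.

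slc1a3a (ENSDARG00000104431), a copy of the gene for the other astrocyte transporter, had counts in 1 synchronized and 1 non-synchronized cell. Synchronized cell 16 held 2 counts, or 1.00 CPM, and non-synchronized cell 13 held 13 counts, or 5.75 CPM. Cell 13 was also the cell with the most microglia and leukocyte RNA, at 2729 CPM, and its radial astroglia sum was 630 CPM. These 2 cells were the only ones with counts of all 5 genes. With 1 of 10 cells in each group, the share of cells with counts had an interval of 0.253% to 44.5%. The other copy, slc1a3b, which was picked out after its values were seen, had 23 counts in 3 synchronized cells, with 8.18 CPM in cell 21 as the highest, and 0 counts in the 10 non-synchronized cells.

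Across the set, no measured gene reached a 2-fold difference between the group means. A gene was called measured at a mean of at least 1 CPM over all libraries, which slc1a3a did not reach. Of the 4 measured genes, 0 had a log2 ratio of at least 1 in either direction, while 26.7% of all 14404 measured genes were at least 2-fold higher in synchronized and 23.3% at least 2-fold higher in non-synchronized cells. The log2 ratios were 0.70 for glsl, 0.20 for glulb, -0.01 for glula and -0.25 for slc1a2b, beside a median of 0.06 over all measured genes. The group differences of mean log2(CPM + 1) were 0.99 for glsl, -1.12 for glulb, 0.11 for glula and -0.11 for slc1a2b. Each was smaller in size than its pooled SD between cells (1.20 for glula, 1.77 for glsl, 1.88 for slc1a2b, 2.37 for glulb). With so wide a spread, these values do not show that the groups are equal. Of the 5 genes, 3 had another direction of the mean without 1 or more of the cells, namely glulb, slc1a2b and slc1a3a, and the nearly equal means of glula changed order with 10 of the 20 cells left out in turn.

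**Figure D3:**
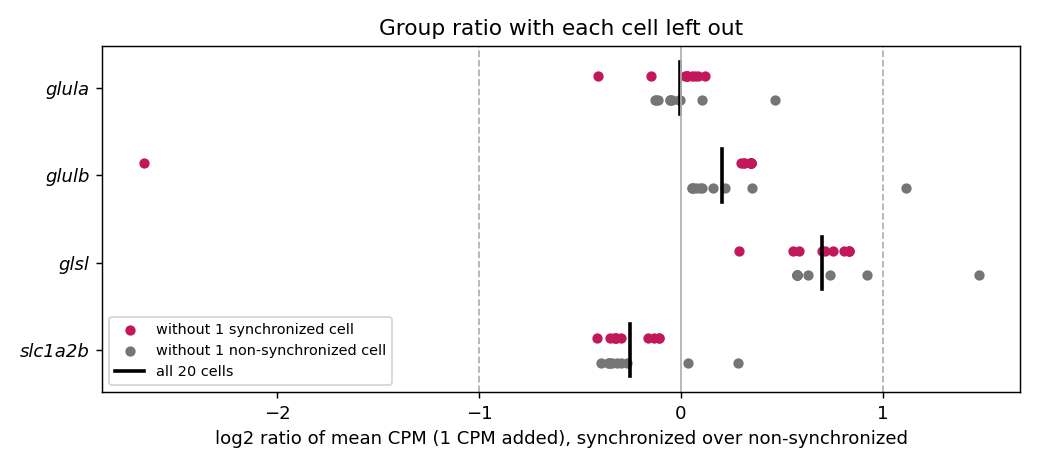
Log2 ratio of the mean CPM (1 CPM added), synchronized over non-synchronized, for the 4 measured genes. The black bar is the value over all 20 cells, each point is the value with 1 cell left out, and dashed lines mark 2-fold differences. glulb ranges from -2.66 to 1.11 and glsl from 0.29 to 1.47, while glula and slc1a2b stay within 2-fold.

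The other genes of glutamate and glutamine handling were taken as 6 lists with 51 genes, of which 46 were found and 32 measured. Of the 32, 20 had a higher mean in synchronized and 12 in non-synchronized cells, beside 51.9% of all measured genes with the higher mean in synchronized cells. At least 2-fold higher were 8 (25.0%) in synchronized and 4 (12.5%) in non-synchronized cells, beside 26.7% and 23.3% of all measured genes. The median log2 ratio of the 32 was 0.23.

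Among the other SLC1 genes 4 of 8 found were measured, 3 of them with the higher mean in synchronized cells, beside 51.9% of all measured genes. slc1a5, a neutral amino acid exchanger that carries glutamine in mammals, had a mean of 61.6 ± 83.0 CPM in the synchronized group, against 14.6 ± 36.7 CPM in the non-synchronized group (SD, n = 10 cells each), with counts in 8 and 5 cells. With synchronized cell 21 left out the synchronized mean was 40.2 CPM, and with non-synchronized cell 10-1 left out the non-synchronized mean was 3.15 CPM. slc1a6, known from mammals as the glutamate transporter of Purkinje neurons, averaged 141 ± 206 and 100.4 ± 103 CPM, an order that turned without synchronized cell 14-1 (87.4 and 100.4 CPM). slc1a4, which carries alanine, serine and cysteine, averaged 441 ± 459 and 325 ± 374 CPM, and the order turned without synchronized cell 4-1 (322 and 325 CPM). None of the 3 differed by more than the SD of the synchronized group. Only slc1a5, with a log2 ratio of 2.01, differed by more than the SD of the non-synchronized group.

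Neither of the glutaminase genes glsa and glsb had the higher mean in synchronized cells, beside 51.9% of all measured genes that had. glsb had counts in all 20 cells and means of 46.6 ± 45.8 CPM in the synchronized and 47.0 ± 68.3 CPM in the non-synchronized group. Without non-synchronized cell 10-1, at 225 CPM, the means were 46.6 and 27.3 CPM. glsa averaged 30.4 ± 34.7 and 46.3 ± 71.2 CPM, with counts in 9 synchronized and 6 non-synchronized cells. Its non-synchronized counts lay mostly in cells 18, 5 and 17, at 165, 158 and 121 CPM, and these were also the 3 non-synchronized cells with the most slc1a2b.

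Of 9 measured SLC38 transporter genes, 3 had a higher mean in synchronized and 6 in non-synchronized cells. Among all measured genes, 51.9% had the higher mean in synchronized cells. The median log2 ratio of the 9 was -0.85. At least 2-fold higher were 0 in synchronized and 4 (44.4%) in non-synchronized cells, beside 26.7% and 23.3% of all measured genes. Without the 5 libraries rich in microglia or red blood cell genes, 7 were measured. Of these, 2 (28.6%) were at least 2-fold higher in each group, beside 4856 of all measured genes in synchronized and 2755 in non-synchronized cells. The share of all genes in this setting is not given, so the 28.6% cannot be placed above or below it. The median of the 7 was -0.42. The largest differences over all 20 cells rested on 1 cell each. slc38a4 had a mean of 2.98 ± 5.54 CPM in the synchronized group, against 83.3 ± 251 CPM in the non-synchronized group, of which cell 15 held 796 CPM, and without it the non-synchronized mean was 4.13 CPM. slc38a5b, which averaged 0.71 and 6.27 CPM, had non-synchronized counts in cell 10 only, and slc38a8b, which averaged 0.13 and 2.61 CPM, in cell 5 only. slc38a10, named after its values were seen, averaged 17.6 and 46.2 CPM, or 17.6 and 16.1 CPM without non-synchronized cell 22.

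Among 13 measured genes of glutamate metabolism, 10 had a higher mean in synchronized and 3 in non-synchronized cells. Of all measured genes, 51.9% had the higher mean in synchronized cells. The median log2 ratio of the 13 was 0.56, and 0.04 over the 9 that reached a mean of 10 CPM. At least 2-fold higher in synchronized cells were 5 (38.5%), and 0 were so in non-synchronized cells, beside 26.7% and 23.3% of all measured genes. gpt2, an alanine aminotransferase gene, had a mean of 15.7 ± 19.2 CPM in the synchronized group, against 2.32 ± 6.40 CPM in the non-synchronized group, with counts in 9 and 3 cells, and its non-synchronized mean was 0.313 CPM without cell 22. glud1a, a glutamate dehydrogenase gene, averaged 28.1 ± 68.9 and 0.06 ± 0.17 CPM, with counts in 4 and 1 cells, and synchronized cell 22 held 217 CPM. Without synchronized cell 22 its mean was 7.14 CPM. slc25a18, a mitochondrial glutamate carrier gene, averaged 2.56 and 0.22 CPM, or 0.11 and 0.22 CPM without synchronized cell 20. The other 2 genes, pcxa and slc25a12, were named after their values were seen, and had log2 ratios of 1.17 and 1.26. Both had counts in 9 cells of each group, with medians of 38.7 and 13.1 CPM for pcxa and 22.3 and 7.69 CPM for slc25a12. The mean of neither was 2-fold higher without its highest cell. pcxa averaged 31.9 and 18.8 CPM without synchronized cell 4, and slc25a12 averaged 26.8 and 22.1 CPM without synchronized cell 9.

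The vesicular glutamate transporter genes load glutamate into synaptic vesicles. All 3 measured members had a higher mean in synchronized cells, beside 51.9% of all measured genes. The log2 ratios were 1.85 for slc17a6b, 1.63 for slc17a7a and 0.78 for slc17a6a. slc17a7a had counts in 9 synchronized and 3 non-synchronized cells, with means of 61.8 ± 79.1 and 19.3 ± 43.8 CPM (SD). Without non-synchronized cell 5 the means were 61.8 and 6.81 CPM. The synchronized mean rested largely on cells 9 and 6, at 214.5 and 193 CPM, beside a group median of 32.8 CPM. slc3a2b, a subunit of several amino acid exchangers and the 1 measured gene of the cystine-glutamate list, averaged 590 ± 410 and 554 ± 548 CPM, an order that turned with poscounts scaling of the libraries (log2 ratio -0.02).

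**Figure D4:**
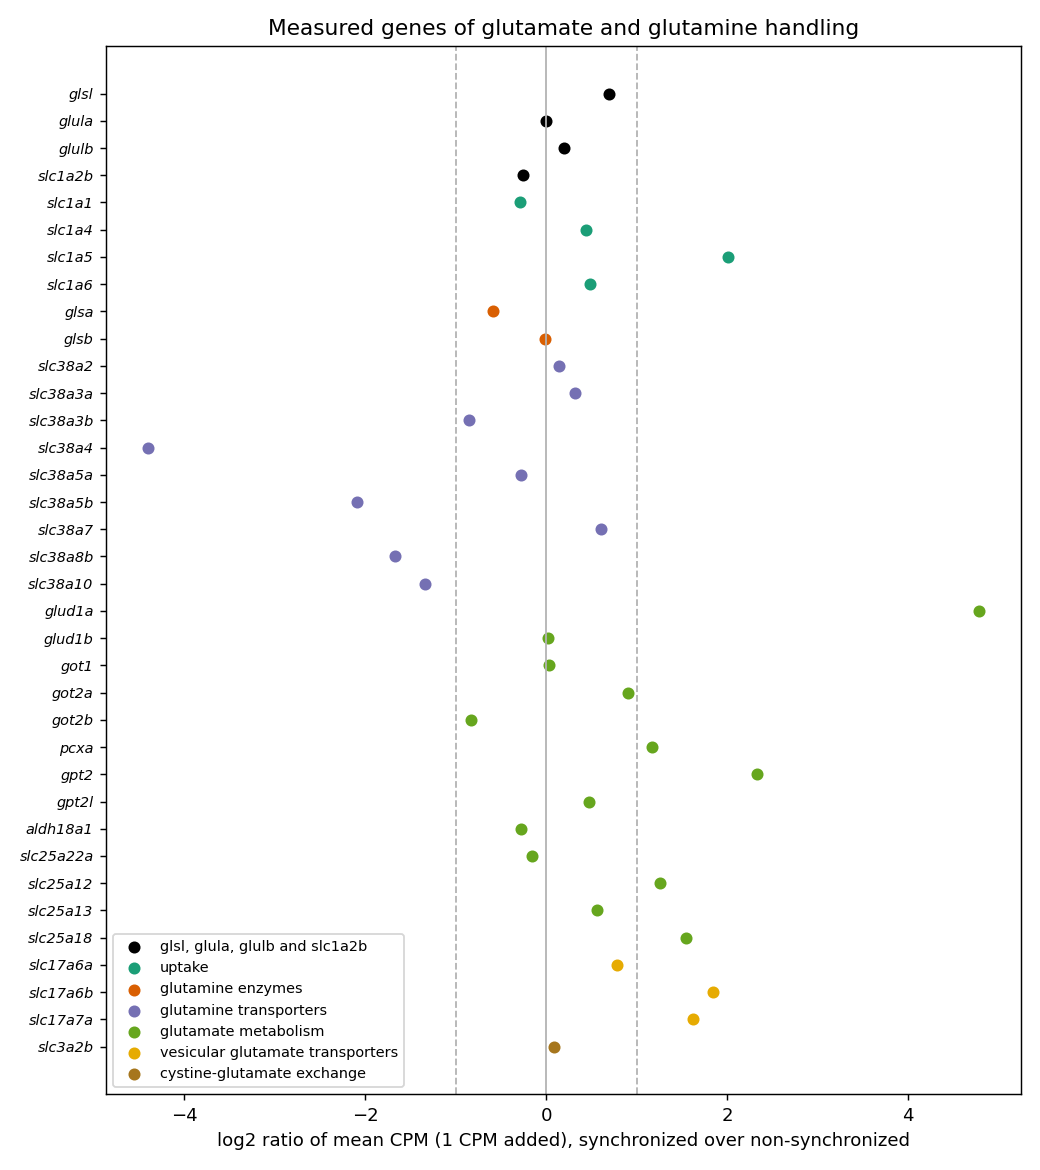
Log2 ratio of the mean CPM (1 CPM added), synchronized over non-synchronized, for the 4 measured genes of the set (black) and 32 measured genes of the 6 lists, coloured by list. Each point is 1 gene over 10 cells a group, and dashed lines mark 2-fold differences. The black points lie between -0.25 and 0.70. The value of slc38a4, -4.41, rests on non-synchronized cell 15. That of glud1a, 4.79, rests mostly on synchronized cell 22 at 217 CPM, with 60.3 CPM in synchronized cell 4.

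The genes whose pattern over the 20 cells was most like each gene were taken as the 3 highest Spearman's rho among 7874 other named genes that had counts in 10 or more cells and a mean of 10 CPM or more (7875 for glsl, which lies below that mean). They are the highest of many and carry no test. For glula these were insra (0.78), col14a1a (0.76) and bbs9 (0.74), and for glsl slc7a6 (0.81), fuca2 (0.79) and phf23b (0.79). The genes for glulb were tsc2 (0.72), stxbp5b (0.71) and xbp1 (0.69), and for slc1a2b tcta (0.81), med12 (0.75) and rida (0.72). No gene was among the 3 of more than 1 member.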

How the data were processed

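The authors deposited raw counts per gene of 20 single-cell libraries made with TruSeq stranded mRNA chemistry and paired-end reads. The submitters' processing notes name danRer11 and edgeR 3.14.0; for the aligner, counting program and strand setting the sources used here name none. Genes were matched by the name in the table, and each of the 5 IDs also occurs in the reference gene names. CPM was the count over the library total. Group means and SDs were taken over cells, and log2 ratios were formed from group means after adding 1 CPM. Counts as deposited gave exact 95% Poisson intervals, and shares of cells gave exact Clopper-Pearson intervals. A ratio of at least 2-fold among genes with a mean of at least 1 CPM was used as background.

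Members and lists were chosen with earlier results of these data known. Named genes were the members, up to 3 measured genes per list with the largest absolute log2 ratio, and, for members with counts in at least 10 cells, the 3 genes most alike in rho of log2(CPM + 1). Cells that share a label number were kept apart, since their chi-square over its degrees of freedom (100.2 for synchronized 4 and 4-1, 154 for non-synchronized 10 and 10-1) lay within the range of the other pairs of each group (59.5 to 152 and 82.5 to 238). Alternatives were TMM and poscounts scaling, totals without mitochondrial genes, summed counts, a pseudocount of 10 CPM, means of logs, averaging cells of 1 label number, each cell left out, 5 counts for detection, 100 draws thinned to 795838 counts, and filters at 0 and 10 CPM. Leaving out 5 libraries rich in microglia or red blood cell genes (over 1000 CPM), or both cells numbered 22, was chosen after seeing the data. The ratio was run on simulated counts, with changes larger than those of the 4 measured genes and only at a mean of at least 10 CPM. That check therefore does not cover smaller differences or lower genes. Scaling factors came from edgeR 4.0.16 (TMM) and DESeq2 1.42.0 (poscounts) in R 4.3.3, and no test of either was used. Intervals were computed with scipy 1.17.1, tables with pandas 2.3.3 and numpy 2.4.6 in Python 3.11.15, and plots with matplotlib 3.10.9.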

Additional observations from a re-analysis of the deposited data

Results flagged for a closer look

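Of the 10 gene and group combinations, 6 had a single cell whose distance to its nearest neighbour exceeded 0.466 of the group's range. For normal data about 1 in 20 groups would do so, and CPM values with many zeros are not normal. How many of all genes pass this limit in these libraries was not counted, so the 6 cannot be called many or few. For slc1a3a, with counts in 1 cell of each group, the limit is passed by construction. glulb reached 198 CPM in synchronized cell 5, where the next cell had 7.54 CPM, and slc1a3a 1.00 CPM in synchronized cell 16, where all others had 0. In non-synchronized cell 22 glula reached 1036 CPM, with 486 CPM in the next cell, and glsl 23.2 CPM, with 10.6 CPM in the next. glulb reached 102 CPM in non-synchronized cell 10, with 36.3 CPM in the next cell, and slc1a3a 5.75 CPM in non-synchronized cell 13, with 0 in all others.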

How the results depend on the processing

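Over 29 alternatives per gene, the log2 ratio of glsl kept its sign in all (0.29 to 2.05), that of slc1a2b in 27 (-0.53 to 0.28), that of glulb in 25 (-3.12 to 1.11) and that of slc1a3a in 27 (-0.66 to 0.15), while that of glula, near 0, changed sign in 15 (-0.41 to 0.47). With 1 cell left out, glulb ranged from -2.66 to 1.11 and slc1a3a from -0.66 to 0.14. Without the 5 libraries rich in microglia or red blood cell genes, the ratio was -3.12 for glulb, 0.15 for slc1a3a and 2.05 for glsl. In that setting slc1a3a had counts in 0 non-synchronized cells. Of the 31 list genes then measured, 11 (35.5%) were at least 2-fold higher in synchronized and 2 (6.45%) in non-synchronized cells. Among all genes then measured, 4856 and 2755 were so. For glulb, summed counts gave -0.43 and means of logs -1.12. With at least 5 counts, slc1a3a was found in 0 synchronized cells. With a mean of at least 10 CPM, 1761 genes were at least 2-fold higher in synchronized and 1724 in non-synchronized cells. Those were fewer than 3849 and 3363 since fewer genes are included. Of the 24 list genes at that mean, 6 (25.0%) were at least 2-fold higher in synchronized and 2 (8.33%) in non-synchronized cells. The share of all genes at that mean is not given, and at a mean of at least 1 CPM it was 26.7% and 23.3%. The median log2 ratio of all measured genes was -0.06 with TMM and -0.16 with poscounts scaling, against 0.06 with library totals. With poscounts scaling 17 of the 32 list genes were higher in synchronized cells, and the share of all genes with that scaling is not given. The 2 cells with slc1a3a held 2 and 13 counts, and the largest library, with a total of 3144155, held 0. Whether depth limits its detection was not tested. Thinning to the smallest total left glsl in 6 to 7 synchronized and 3 to 4 non-synchronized cells. No paired analysis was possible because the results come from no test, each group being 1 sample. The numbers 5, 6 and 22 occur in both groups, but what they mark is not given, so these cells were not taken as pairs.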
